A study of Homo sapiens with 12 samples.

Results

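The genes described here are 10 genes of cell-cell junctions in HOS cells, a human osteosarcoma cell line, in which the adaptor protein CIN85 was raised or silenced. CLDN1 and TJP1 belong to tight junctions, DSC2, DSC3, DSP and JUP to desmosomes, and CDH2, CDH3, CDH11 and CTNNB1 to adherens junctions. They were found in the count table by the Ensembl identifiers that GENCODE pairs with these symbols, and all 10 had a row among the 25141 genes of the table. The members were chosen by their place in junctions with their fold changes in upCIN85 versus Mock and in siCIN85 versus siNeg already known, starting from CLDN1, which was lower in both. In these 2 comparisons the members' values are therefore a description without P-values. The only call given there, that of CLDN1, is not read as a result. The question asked is which other junction genes were lower with both manipulations.

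Tight junctions seal the space between neighbouring cells by claudin strands, which scaffold proteins such as ZO-1 tie to actin. Desmosomes anchor intermediate filaments: desmocollins and desmogleins, which are cadherins, bridge the cells, and plakoglobin, plakophilins and desmoplakin link them to the filaments. Adherens junctions join classical cadherins to the actin cytoskeleton through catenins. Claudins and desmosomal proteins are best known from epithelia, whereas N-cadherin and cadherin-11 are typical of mesenchymal and osteoblastic cells, the lineage from which osteosarcoma is thought to arise.

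The 12 RNA-seq libraries fall into 4 groups of 3. For upCIN85, HOS cells were transfected with the plasmid pRc/CMV2-Rukl, which carries the full-length form of CIN85, and selected as a pool with geneticin (G418). Mock cells went through the same steps with empty vector. In siCIN85 the gene was silenced with mixed CIN85 siRNAs, and siNeg served as its control with a non-targeting siRNA. The vector groups were pools rather than clones, and the time from siRNA transfection to RNA extraction is not given in the sources used here. The study's methods speak of biological replicates in general, and the sources used here do not say whether those of the RNA-seq were separate cultures, so P-values measure the spread between these libraries, which may be technical.

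Total counts were 5334731 to 6049458 per library in the vector groups and 3540641 to 4174860 in the siRNA groups. SH3KBP1, which encodes CIN85, had 3.88, 8.96 and 9.77 CPM (normalized counts relative to the library total) in siCIN85 replicates 1, 2 and 3, below every siNeg library (82.6 to 87.2 CPM). In upCIN85 it had 71.0 to 90.0 CPM, overlapping the 73.0 to 82.8 CPM of Mock. The libraries read 3′ ends, and the sources used here do not say whether the plasmid transcript carries the 3′ end of the gene, so these reads do not check the overexpression. The paper checked it at the protein level instead, by western blots of CIN85 in the geneticin-resistant pool, with densitometry. Of 12 osteoblastic and mesenchymal markers, 10 had a row, with COL1A1, SPARC, VIM and FN1 the highest and the bone sialoprotein gene IBSP at 0 to 1 count per library. Their summed level overlapped between Mock (2266 to 2769 CPM) and upCIN85 (2333 to 3274 CPM). It was 1597 to 2129 CPM in siCIN85 and 2284 to 2839 CPM in siNeg, without overlap. Of 12 epithelial markers, 11 had a row, and their summed level overlapped among the groups, with 340 to 401 CPM in Mock against 344 to 362 CPM in upCIN85, and 332 to 431 CPM in siNeg against 327 to 359 CPM in siCIN85. These sums follow the highest markers, and single markers differed both ways. From Mock to upCIN85 the mean of COL1A2 went from 57.2 to 145 CPM and that of SPARC from 545 to 427 CPM. Among the epithelial markers CDH1 went from 14.8 to 24.2 CPM and KRT18 from 256 to 206 CPM. The part of either marker list in the results was not tested.

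Of the 10 members, 9 passed the filter on low counts and CDH11 did not. DSC3 and CDH3 reached the 2.10 CPM that the filter requires of 3 libraries in 7 of the 12 libraries each, among them all 3 of upCIN85, and the other 7 members tested reached it in all 12. The median log2 fold change (log2FC) over the 9 members was -0.06 in upCIN85 versus Mock and -0.22 in siCIN85 versus siNeg, and the medians of all genes tested were 0.01 and -0.01.

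**Figure D1:**
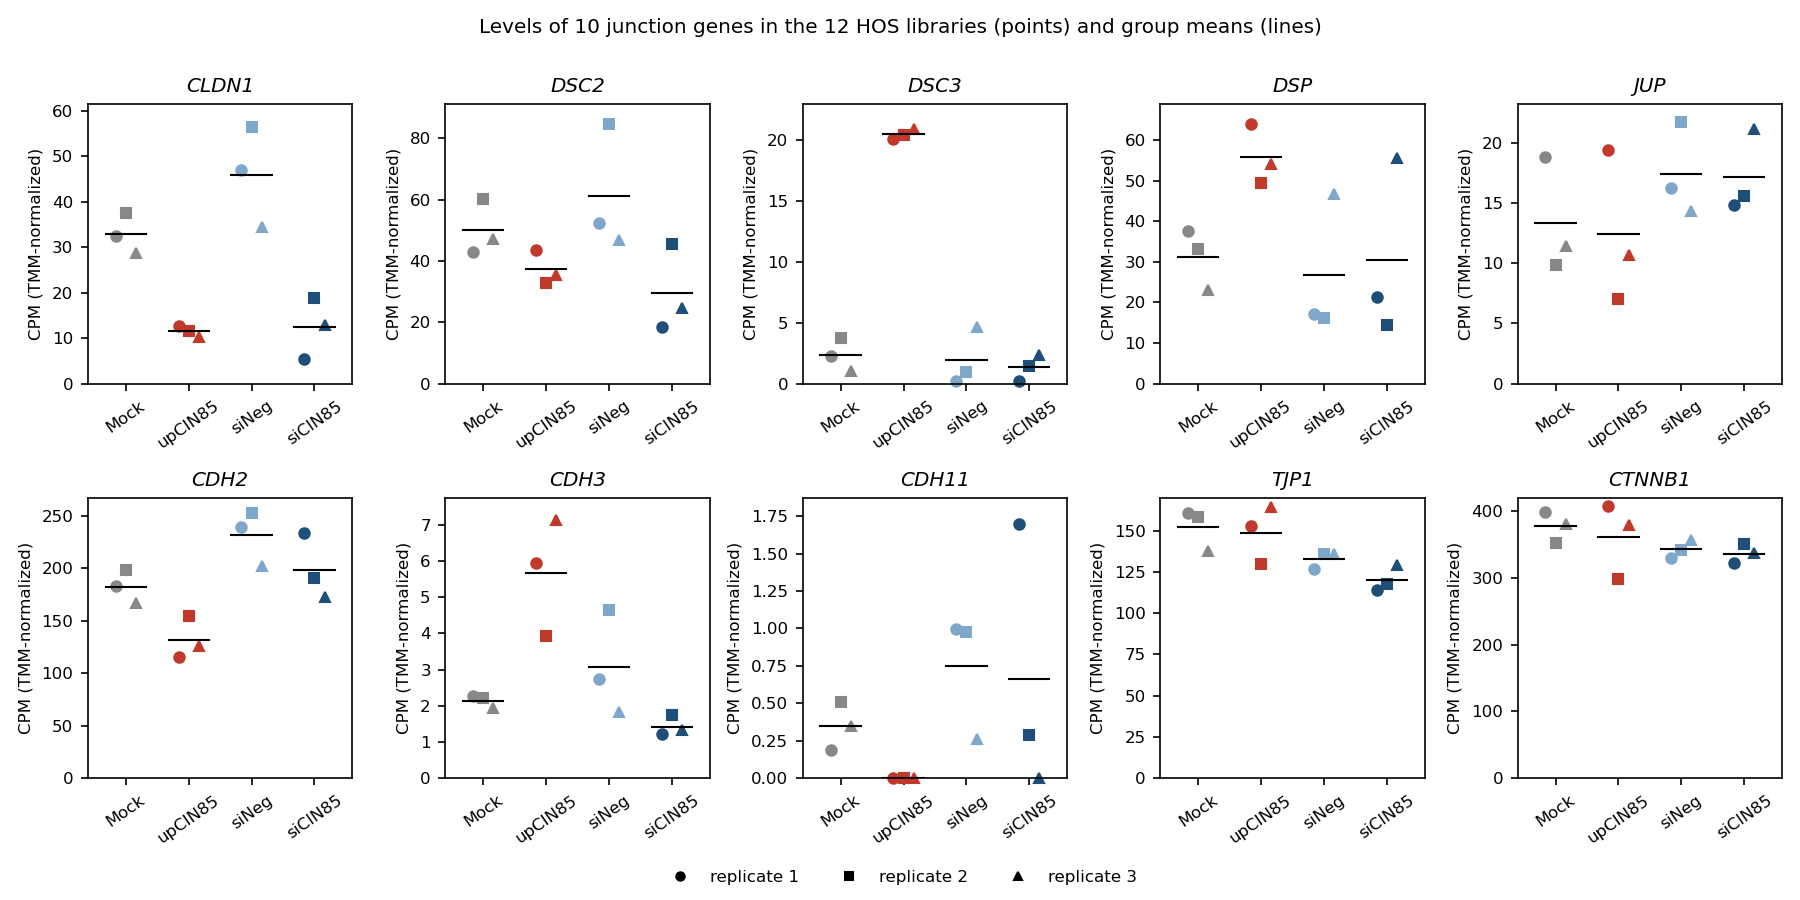
Levels of the 10 junction genes, in TMM-normalized CPM on linear axes from 0, in the 3 libraries of each group (points, with a shape for each replicate number) and as group means (lines). CLDN1 lies at 5.34 to 18.8 CPM in upCIN85 and siCIN85 and at 28.8 to 56.4 CPM in their controls, while DSC3 stands at 20.1 to 20.9 CPM in upCIN85 only.

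CLDN1 (ENSG00000163347), on the minus strand of chromosome 3 from 190305701 to 190322475 (GRCh38), encodes claudin-1, a strand-forming protein of tight junctions. It had 32.5, 37.5 and 28.8 CPM in Mock replicates 1, 2 and 3, and 12.8, 11.6 and 10.2 CPM in upCIN85. In the siRNA experiment it had 47.0, 56.4 and 34.4 CPM in siNeg, and 5.34, 18.8 and 12.9 CPM in siCIN85. All 6 libraries with altered CIN85 lay below all 6 control libraries. The means were 32.9 ± 4.39 CPM in Mock against 11.5 ± 1.28 CPM in upCIN85, and 45.9 ± 11.1 CPM in siNeg against 12.4 ± 6.75 CPM in siCIN85 (SD, n = 3), and in this order of levels upCIN85 and siCIN85 overlapped, as did Mock and siNeg.

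The log2FC of CLDN1 was -1.51 ± 0.27 (SE) in upCIN85 versus Mock, a level 2.86-fold lower, and -1.92 ± 0.28 in siCIN85 versus siNeg, a level 3.78-fold lower. Among the siCIN85 libraries, replicate 1 had the least SH3KBP1 and the least CLDN1, whereas replicate 3 had the most SH3KBP1 and replicate 2 the most CLDN1. In the 3 pairs of same-numbered siRNA libraries the siCIN85 level was 0.114, 0.333 and 0.376 of the siNeg level. Without siCIN85 replicate 1 the knockdown log2FC was -1.54. Lower counts in bulk RNA can come from fewer cells expressing a gene or from less RNA per cell, and these cannot be told apart here.

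TJP1 (ENSG00000104067, chromosome 15 from 29699367 to 29968865), which encodes the claudin-binding scaffold ZO-1, showed little of this. It had 161, 158 and 138 CPM in Mock, and 152, 130 and 164 CPM in upCIN85. The siRNA libraries held 127, 136 and 136 CPM (siNeg) and 114, 117 and 129 CPM (siCIN85). The groups overlapped in both comparisons, with a log2FC of -0.03 ± 0.11 and -0.15 ± 0.11. Each siCIN85 library was nevertheless below its same-numbered siNeg library, at 0.864 to 0.950 of its level.

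DSC2 (ENSG00000134755), on chromosome 18 from 31058840 to 31102522, encodes desmocollin-2, the most widely expressed desmocollin. In Mock it had 42.9, 60.3 and 47.0 CPM and in upCIN85 43.5, 32.8 and 35.5 CPM, so that upCIN85 replicate 1 alone reached into the Mock range. The siNeg libraries had 52.2, 84.6 and 46.9 CPM and the siCIN85 libraries 18.4, 45.4 and 24.6 CPM, without overlap. Its log2FC was -0.43 ± 0.25 in upCIN85 versus Mock and -1.07 ± 0.27 in siCIN85 versus siNeg, the second a level 2.10-fold lower. The same-numbered siCIN85 libraries stood at 0.353, 0.537 and 0.524 of siNeg, and in a fit with the replicate number as a term for the siRNA libraries the knockdown log2FC was -1.09 ± 0.17. DSC2 was thus the member nearest to CLDN1 in pattern, with libraries below the control in 1 of the 2 comparisons and overlapping by a narrow margin in the other.

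Across the 12 libraries the log2 CPM of DSC2 followed that of CLDN1 with a Pearson r of 0.883, and DSC2 ranked 11 of 12541 genes by this measure. Among the genes with the highest r were ITGAV, the integrin alpha-V chain (0.949), PAPSS2, an enzyme that makes the sulfate donor PAPS (0.937), TMEM106C (0.912) and SDC4, the heparan sulfate proteoglycan syndecan-4 (0.907). The points are 12 libraries in 4 groups, so that these values largely restate the differences between groups. ITGAV, for example, had means of 165 and 202 CPM in the controls Mock and siNeg, and of 136 in upCIN85 and 124 in siCIN85. The r of CLDN1 with the other 7 members tested lay between -0.38 (DSP) and 0.47 (CDH2).

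**Figure D2:**
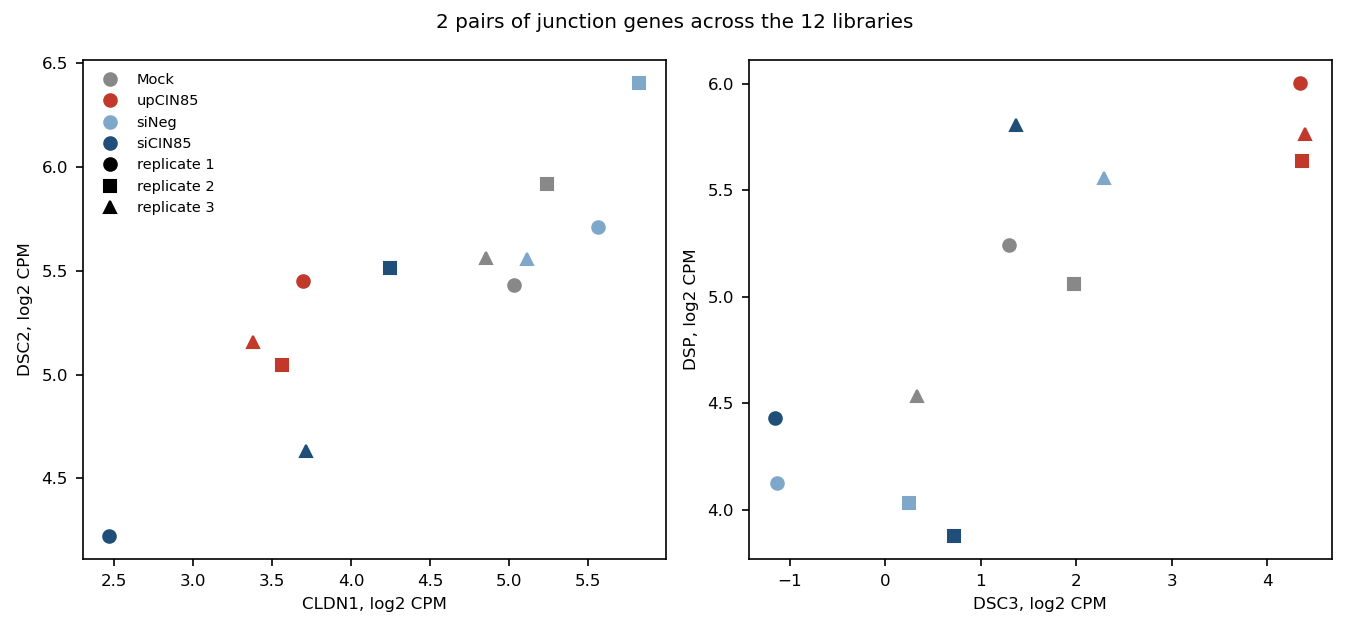
Log2 CPM of CLDN1 against DSC2 (left) and of DSC3 against DSP (right) in the 12 libraries, coloured by group and shaped by replicate number. CLDN1 and DSC2 are high and low in the same libraries (r = 0.883), and in the right panel the upCIN85 libraries lie at the top right and replicate 3 of both siRNA groups far above replicates 1 and 2 in DSP.

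The sequences just before the start sites of CLDN1 and DSC2 are shown because DSC2 was the member most correlated with CLDN1. They are from RefSeq (GRCh38.p14) and end before the first base of the gene in both RefSeq and GENCODE, 5′ to 3′ on the gene's own strand. Capitals mark the E-box CAGGTG, which the SNAI and ZEB repressors of junction genes can bind, searched on both strands.
CLDN1 chr3:190322476-190322696, minus strand: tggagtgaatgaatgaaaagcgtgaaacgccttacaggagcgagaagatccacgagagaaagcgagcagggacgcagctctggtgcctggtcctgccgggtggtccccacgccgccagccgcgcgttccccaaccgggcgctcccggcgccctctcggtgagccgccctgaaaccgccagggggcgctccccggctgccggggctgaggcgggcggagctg
DSC2 chr18:31102523-31102671, minus strand: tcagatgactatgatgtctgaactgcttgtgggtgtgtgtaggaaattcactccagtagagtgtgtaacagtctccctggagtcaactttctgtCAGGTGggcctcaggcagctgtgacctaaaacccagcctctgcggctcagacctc
The DSC2 stretch holds 1 such E-box, which begins 156 bases before the RefSeq start, and the CLDN1 stretch holds none. Over windows of 250 bases before RefSeq starts, 4 of the 14 windows of the 8 members with an entry had the letters (1 window each of DSC2, DSP, JUP and TJP1), and 17.5% of all 35116 windows had them. A match is a description of the letters and not a bound site.

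DSC3 (ENSG00000134762), next to DSC2 on chromosome 18 from 30990008 to 31042815, encodes desmocollin-3, a form best known from stratified epithelium. It was low in 3 groups and high in upCIN85. Mock libraries had 2.26, 3.73 and 1.05 CPM, and upCIN85 libraries 20.1, 20.4 and 20.9 CPM. The siNeg libraries had 0.250, 0.977 and 4.69 CPM and the siCIN85 libraries 0.243, 1.45 and 2.38 CPM, from 1 to 18 counts each. The log2FC in upCIN85 versus Mock was 3.10 ± 0.46, an 8.59-fold higher level, with no overlap and little spread between the upCIN85 libraries (20.5 ± 0.403 CPM, SD, n = 3). In siCIN85 versus siNeg it was -0.54 ± 0.78, and without siNeg replicate 3 it turned to 1.06, so no direction can be given at these counts. Of 6 stratified epithelial markers, 4 had a row, and KRT5 and KRT14 had none. TP63, DSG3 and KRT17 had 0 to 2 counts in each of the 12 libraries, and SFN had 1 to 15.

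DSP (ENSG00000096696, chromosome 6 from 7541575 to 7586717) encodes desmoplakin, the plaque protein that holds intermediate filaments. It had 37.6, 33.1 and 23.0 CPM in Mock and 64.0, 49.5 and 54.1 CPM in upCIN85, so that all upCIN85 libraries lay above all Mock libraries, with a log2FC of 0.84 ± 0.38. The siRNA groups were divided by replicate number. Replicates 1, 2 and 3 had 17.2, 16.1 and 46.9 CPM in siNeg and 21.4, 14.5 and 55.7 CPM in siCIN85. Replicate 3 was therefore the highest in both groups, and the difference between the groups was small beside it (log2FC 0.20 ± 0.41, turning to -0.57 without siCIN85 replicate 3). DSC3 was also highest in replicate 3 of both siRNA groups, and over the 12 libraries its log2 CPM had an r of 0.814 with that of DSP.

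The start regions of DSC3 and DSP are shown for comparison, as the desmosomal members that were higher in upCIN85, with the same source, direction and capitals.
DSC3 chr18:31042816-31042992, minus strand: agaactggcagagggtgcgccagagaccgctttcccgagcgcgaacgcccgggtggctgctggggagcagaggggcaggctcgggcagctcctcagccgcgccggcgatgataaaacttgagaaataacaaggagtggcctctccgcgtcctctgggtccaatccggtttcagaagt
DSP chr6:7541421-7541574, plus strand: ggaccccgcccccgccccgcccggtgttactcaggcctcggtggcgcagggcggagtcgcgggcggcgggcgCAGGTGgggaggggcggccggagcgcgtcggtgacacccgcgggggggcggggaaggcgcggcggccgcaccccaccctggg
The DSP window of 250 bases had a GC content of 78.0%, against 60.4% for DSC3, 68.8% for CLDN1, 59.6% for DSC2 and a median of 58.0% over all windows. DSP held 2 E-boxes in that window, of which the stretch above shows the one that begins 178 bases before the RefSeq start.

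JUP (ENSG00000173801, chromosome 17 from 41754604 to 41786931) encodes plakoglobin, which serves desmosomes and adherens junctions alike. Mock libraries had 18.8, 9.85 and 11.4 CPM and upCIN85 libraries 19.4, 7.03 and 10.7 CPM, with replicate 1 the highest of both groups. The siNeg libraries had 16.2, 21.7 and 14.3 CPM and the siCIN85 libraries 14.8, 15.6 and 21.1 CPM. Its levels overlapped between all 4 groups, and both log2FC values were near 0 (-0.11 ± 0.31 and -0.02 ± 0.31). With a library left out the first lay between -0.59 (without upCIN85 replicate 1) and 0.22 (without Mock replicate 1) and the second between -0.21 and 0.16, so neither has a direction.

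CDH2 (ENSG00000170558, chromosome 18 from 27950966 to 28177446) encodes N-cadherin, the main classical cadherin of many mesenchymal cells. It had 183, 198 and 167 CPM in Mock and 115, 154 and 126 CPM in upCIN85, without overlap, and a log2FC of -0.47 ± 0.13. The siNeg libraries had 240, 253 and 202 CPM and the siCIN85 libraries 233, 190 and 172 CPM, which overlapped, with a log2FC of -0.22 ± 0.13. All same-numbered siRNA pairs were lower in siCIN85, at 0.753 to 0.973 of siNeg. CDH2 thus stood below the control in both comparisons by its mean, with a smaller difference than CLDN1 in each.

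CDH3 (ENSG00000062038, chromosome 16 from 68636189 to 68722616) encodes P-cadherin, a classical cadherin of basal epithelial cells. Its differences had opposite signs in the 2 experiments, at 5 to 42 counts per library. Mock libraries had 2.26, 2.21 and 1.93 CPM and upCIN85 libraries 5.95, 3.92 and 7.14 CPM (log2FC 1.40 ± 0.34). The siNeg libraries had 2.75, 4.64 and 1.82 CPM and the siCIN85 libraries 1.21, 1.74 and 1.32 CPM (log2FC -1.12 ± 0.44). The groups did not overlap in either comparison.

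CDH11 (ENSG00000140937, chromosome 16 from 64943753 to 65126112), the gene of the osteoblast cadherin, was at or near 0 in all groups. It had 1, 3 and 2 counts in Mock, 0 in every upCIN85 library, 4, 4 and 1 counts in siNeg and 7, 1 and 0 counts in siCIN85. A count of 0 allows 3 counts, or 0.496 to 0.524 CPM in the upCIN85 libraries, for counting error only. No fold change is given at these counts.

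CTNNB1 (ENSG00000168036, chromosome 3 from 41194741 to 41260096) encodes beta-catenin, which links classical cadherins to alpha-catenin and also carries Wnt signals. Mock libraries had 400, 353 and 382 CPM and upCIN85 libraries 408, 298 and 380 CPM. The siNeg libraries had 330, 342 and 357 CPM and the siCIN85 libraries 322, 351 and 337 CPM. The groups overlapped in both comparisons, and the log2FC was -0.06 ± 0.11 and -0.03 ± 0.11.

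Taking the members side by side, 6 of the 9 tested had a negative log2FC in both comparisons (CLDN1, DSC2, JUP, CDH2, TJP1 and CTNNB1), as had 26.2% of all genes. The values of JUP, TJP1 and CTNNB1 lay between -0.15 and -0.02, and without upCIN85 replicate 2 the count was 3 of 9. CLDN1, chosen for being lower in both, was the only member whose libraries lay below the control without overlap in both, as did those of 1.12% of all genes. By comparison, 2 members lay below Mock without overlap in upCIN85 (CLDN1 and CDH2; 11.0% of all genes) and 3 above it (DSC3, DSP and CDH3; 9.74%). In siCIN85 versus siNeg, 3 lay below (CLDN1, DSC2 and CDH3; 10.2%) and 0 above (9.91%).

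**Figure D3:**
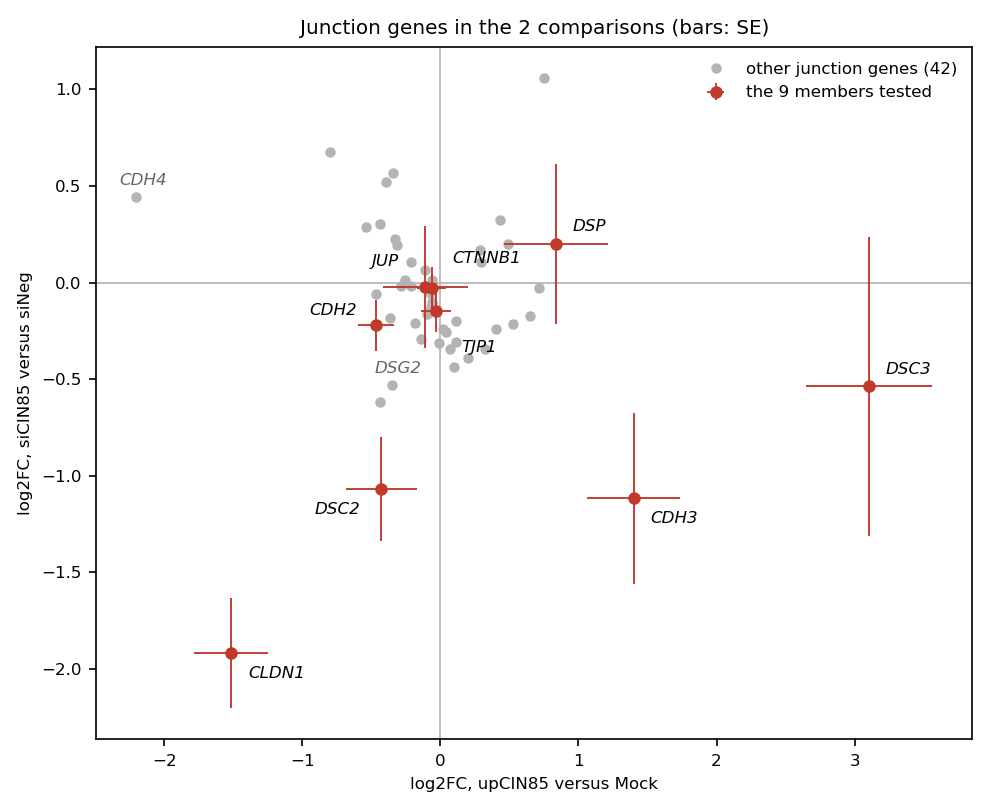
Log2FC in upCIN85 versus Mock (horizontal) against log2FC in siCIN85 versus siNeg (vertical) for the 9 members tested (red, bars are SE) and 42 other junction genes (grey). CLDN1 lies alone at the lower left (-1.51, -1.92), DSC2 is the next member below 0 on both axes, and DSC3 and CDH3 lie at the lower right.

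**Figure D4:**
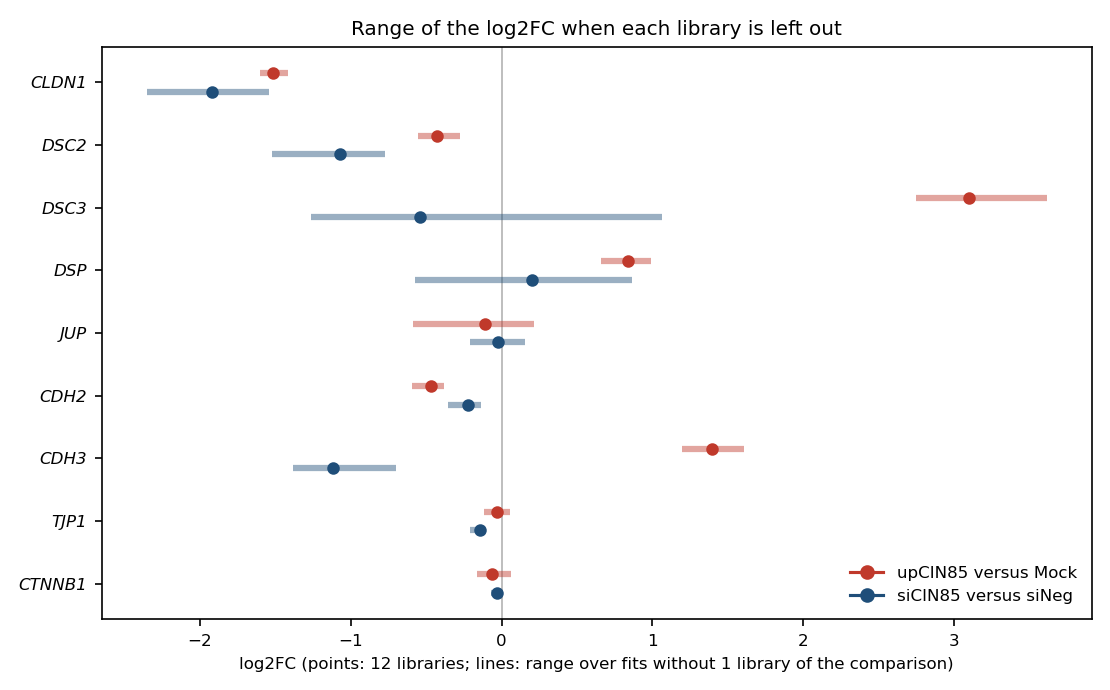
Log2FC of the 9 members tested in the 2 comparisons with all libraries (points) and its range when each library of the comparison is left out (lines). The lines of CLDN1, DSC2 and CDH2 stay below 0 in both comparisons, and those of DSC3 (-1.26 to 1.06), DSP (-0.57 to 0.87), JUP and CTNNB1 in siCIN85 versus siNeg and of JUP (-0.59 to 0.22), TJP1 and CTNNB1 in upCIN85 versus Mock cross 0.

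The comparison of the 2 control groups, siNeg versus Mock, was not itself used to choose the members. Both groups were the controls in that choice, however, so the values and P-values below are not independent of it. The 2 control groups also differ in transfection, selection and depth. These cannot be told apart there. None of the 9 members passed the threshold, an adjusted P of 0.05 (edgeR quasi-likelihood test, adjusted over 12542 genes), against 0.526% of all genes, and 1 of them, CDH2, had an unadjusted P under 0.05, as had 12.4% of all genes. CDH2 was higher in all siNeg libraries than in all Mock libraries (log2FC 0.34 ± 0.13, edgeR adjusted P = 0.273). CLDN1 was 0.48 ± 0.25 higher on the log2 scale with overlapping libraries (edgeR adjusted P = 0.444). TJP1 had a log2FC of -0.20 ± 0.11 without overlap (edgeR adjusted P = 0.475). Of all genes 9.48% lay higher in siNeg without overlap, as CDH2 did, and 9.94% lower, as TJP1 did. The adjusted P of the other 6 lay between 0.605 and 0.902 (edgeR). DESeq2 also called 0 of the 9, but it gave CDH3 no adjusted P and so could not call it.

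Outside the 10 members, 92 further junction genes were listed, from claudins to connexins. Of these, 72 had a row and 42 were tested. In upCIN85 versus Mock 17 had a positive and 25 a negative log2FC, with a median of -0.07, and 10 had an unadjusted P under 0.05 (14.5% of all genes had). The threshold was passed by 1 of the 42, downwards, and by 1.23% of all genes (0.789% downwards and 0.439% upwards). The junction gene past it was CDH4 (ENSG00000179242, chromosome 20), which encodes R-cadherin, a classical cadherin known from neural tissue. It had 12.6, 21.1 and 13.9 CPM in Mock and 2.10, 5.23 and 2.89 CPM in upCIN85, with a log2FC of -2.20 ± 0.37 (edgeR adjusted P = 0.00739). In siCIN85 versus siNeg its log2FC was 0.44 ± 0.32 (edgeR adjusted P = 0.517). Without Mock replicate 2 or upCIN85 replicate 3 the adjusted P of the CDH4 fall was 0.0507 and 0.0668 (edgeR), and over all alternatives it lay between 1.51e-16 and 0.0668.

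In siCIN85 versus siNeg, 17 of the 42 had a positive and 25 a negative log2FC, with a median of -0.06. None passed the threshold in edgeR, against 1.04% of all genes (0.454% downwards and 0.59% upwards), and 6 had an unadjusted P under 0.05 (15.7% of all genes had), and DESeq2 called 1, DSG2. The main fit leaves out the replicate number, by which the siRNA libraries appear to be paired. With it as a term for these libraries, DSG2 passed as well (log2FC -0.53 ± 0.14, edgeR adjusted P = 0.0468). In all, 429 instead of 131 genes then passed. In siNeg versus Mock 0 of the 42 passed in edgeR and in DESeq2, and 3 had an unadjusted P under 0.05 in edgeR.

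None of the 42 passed the threshold downwards in both comparisons in edgeR or in DESeq2. In edgeR 1 of the 12542 genes (0.00797%) did, and it was CLDN1, which is not among the 42. The edgeR count for the 42 could therefore only be 0, and no conclusion is drawn from it. The CLDN1 call is not read as a result either, because CLDN1 was chosen for being lower in both. In upCIN85 versus Mock the call was lost without Mock replicate 2 and without upCIN85 replicate 3. A negative log2FC in both was found for 13 of the 42, and for 26.2% of all genes. The libraries of 3 of the 42, namely DSG2, OCLN and VCL, lay below the control without overlap in both, as did those of 1.12% of all genes. DSG2, desmoglein-2, the usual partner of desmocollin-2 in desmosomes, had 53.4, 69.3 and 54.5 CPM in Mock and 45.6, 41.7 and 51.5 CPM in upCIN85. Its siRNA libraries had 89.2, 80.9 and 67.7 CPM (siNeg) and 49.3, 60.7 and 54.7 CPM (siCIN85). The log2FC was -0.35 ± 0.14 (edgeR adjusted P = 0.251) and -0.53 ± 0.14 (edgeR adjusted P = 0.084, and 0.0158 to 0.319 over the alternatives).

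OCLN, occludin, a membrane protein of tight junctions, had only 8 to 37 counts per library, so its separation rests on few counts. It had 4.33, 5.26 and 6.49 CPM in Mock and 3.91 to 4.02 CPM in upCIN85. It had 3.67 to 4.43 CPM in siNeg and 2.18, 3.47 and 2.11 CPM in siCIN85, and the adjusted P was 0.464 and 0.365 (edgeR). VCL, vinculin, an actin-binding protein of adherens junctions and focal adhesions, had a log2FC of -0.36 ± 0.09 (edgeR adjusted P = 0.0522) and -0.18 ± 0.09 (edgeR adjusted P = 0.335). The first passed with the replicate term for the siRNA libraries (edgeR adjusted P = 0.0249) and with DESeq2 (adjusted P = 0.00546), and over the alternatives it ranged from 0.00536 to 0.238. Its Mock libraries held 443 to 492 CPM against 341 to 401 CPM in upCIN85, and its siNeg libraries 407 to 436 CPM against 365 to 381 CPM in siCIN85.

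By family, 4 of 22 claudins other than CLDN1 were tested, CLDN3, CLDN11, CLDN12 and CLDN15, and none passed in any of the 3 comparisons in edgeR, where 0 had an unadjusted P under 0.05 in upCIN85 versus Mock or siCIN85 versus siNeg. CLDN11, with 515 to 615 CPM as group means, had a log2FC of -0.07 ± 0.11 in upCIN85 versus Mock and -0.13 ± 0.12 in siCIN85 versus siNeg. Of the tight junction partners 13 of 17 were tested, with a negative log2FC for 8 in upCIN85 versus Mock and 7 in siCIN85 versus siNeg, and for 2 in both. Of the other desmosomal genes 6 of 12 were tested, and 3 were negative in both, DSG2, PKP4 and PERP, the last 2 named after their values were seen. In upCIN85 versus Mock and siCIN85 versus siNeg, PKP4 had a log2FC of -0.46 ± 0.17 and -0.06 ± 0.18. PERP had -0.14 ± 0.12 and -0.29 ± 0.13. Negative in both were also 2 of 4 claudins, 0 of 4 cadherins, 4 of 12 catenins and nectins and 2 of 3 gap junction genes tested. Of all genes 26.2% were.

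Regulators of junction genes were a list of 14, with 8 tested, among them SNAI1, SNAI2, ZEB1 and ZEB2. None passed the threshold in any of the 3 comparisons in edgeR, and all those named next were named after their values were seen. The unadjusted P was under 0.05 for 1 of the 8 in upCIN85 versus Mock (SNAI1, lower), against 14.5% of all genes. In siCIN85 versus siNeg it was for 3 (KLF4 and ZEB1, higher, and ELF3, lower), against 15.7%, and in siNeg versus Mock for 2 (ELF3, higher, and SNAI2, lower), against 12.4%. All of these passed in some alternatives. SNAI1 did so in 2 in the first comparison, and KLF4, ZEB1 and ELF3 in 5, 2 and 2 in the second. ELF3 and SNAI2 did so in 1 each in the third. KLF4, which codes for a zinc-finger factor of epithelia, had 3.50, 1.22 and 2.34 CPM in siNeg and 8.49, 4.92 and 7.39 CPM in siCIN85, a log2FC of 1.56 ± 0.40 (edgeR adjusted P = 0.0642), which passed with the replicate term for the siRNA libraries (edgeR adjusted P = 0.0217, and 0.003 to 0.271 over all alternatives).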

How the data were processed

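RNA-seq libraries of HOS cells were made with the Lexogen QuantSeq 3′ FWD kit with a UMI module and read as single-end reads. According to the submitters' processing notes, cutadapt 4.3, STAR 2.7.3a, the build GRCh38 and featureCounts of Subread 2.0 were used. The authors deposited 1 table of raw counts of reads per gene, without normalization. The annotation, the strand setting and any collapsing of UMIs are not given in the sources used here. Counts of a 3′ kit do not grow with transcript length, and levels are compared here within a gene only.

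Gene names and positions are from GENCODE release 29, in which 95 identifiers had no match. The authors tested with DESeq2. Here the counts were tested in R 4.3.3 with edgeR 4.0.16, which keeps 1 estimate of the spread over all 12 libraries (TMM, filterByExpr with a minimum count of 10 and a minimum total of 15, a mean per group, glmQLFTest, 8 residual degrees of freedom, two-sided, Benjamini-Hochberg over 12542 genes). The threshold was an adjusted P of 0.05. Standard errors were approximated as |log2FC|/√F. CPM are TMM-normalized, and log2 CPM used a prior count of 1. A comparison counts as not overlapping when all libraries of a group lie above or below all of the other. The fit was tested on simulated counts with known changes.

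Same-numbered siCIN85 and siNeg libraries, by the replicate numbers of the labels, deviated together from their group means (r = 0.345, 0.263 and 0.436). The numbers thus appear to pair them, although the labels state no pairing. The main fit has no term for it, and its P-values ignore it. Depth was 3540641 to 6049458 counts per library, and genes with 10 or fewer counts have wide counting errors. CDH2 and CDH3 overlap an opposite-strand gene each, of at most 5 counts per library.

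Alternatives were RLE normalization, no filter, at least 10 counts in every library, the 6 libraries of a comparison alone, the replicate number as a block, DESeq2 1.42.0 and each library left out in turn. Named were the 10 members, SH3KBP1, listed junction genes past the threshold or below the control without overlap in both comparisons, and the 5 genes most correlated with CLDN1, of which 1 is not reported here. Members, gene lists and the E-box were chosen with earlier results of these data known. RefSeq promoters (250 bases before a start) were matched by symbol for 8 of 10 members, in 14 windows, leaving CDH3 and CDH11.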

Additional observations from a re-analysis of the deposited data

How the results depend on the processing

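The difference of CLDN1 kept its sign in every fit, between -1.60 and -1.41 in upCIN85 versus Mock and between -2.35 and -1.54 in siCIN85 versus siNeg when each library was left out. The members' log2FC, read without calls in these 2 comparisons, moved by less than the spread between replicates except for 3 values, all without siNeg replicate 3: DSC3 went to 1.06 in siCIN85 versus siNeg and to -1.89 in siNeg versus Mock, and DSP to -0.90 in siNeg versus Mock. Of OCLN, DSG2, CDH4, VCL and KLF4, which are no members, DSG2, VCL and KLF4 came to pass the threshold in 14 values. CDH4 no longer passed in 2. Genes named after their values were seen also came to pass, in 1 to 3 alternatives per comparison. These were PKP4 and SNAI1 in upCIN85 versus Mock, ZEB1 and ELF3 in siCIN85 versus siNeg, and ELF3 and SNAI2 in siNeg versus Mock. The cause was not tested.

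Counts over all genes depended on the fit. Against 154, 131 and 66 genes called in upCIN85 versus Mock, siCIN85 versus siNeg and siNeg versus Mock, there were 637, 617 and 376 without the filter and 311, 298 and 183 with DESeq2. With the 6 libraries of the comparison alone there were 281 and 50 in the first 2. A replicate block in both experiments gave 1035 and 968, and a replicate block in the siRNA experiment only gave 545 and 429. Leaving out each library gave 25 (without upCIN85 replicate 3) to 260 (without upCIN85 replicate 2), 9 (without siCIN85 replicate 1) to 362 (without siCIN85 replicate 2), and 7 (without Mock replicate 3) to 134 (without siNeg replicate 3).

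Of the 42 other junction genes, 1 called in upCIN85 versus Mock became 5 without the filter, 6 with the replicate block in both experiments, 2 with the block in the siRNA experiment only, 2 with DESeq2 and 0 to 3 when a library was left out. In siCIN85 versus siNeg 0 became 1 without the filter, with either replicate block and with DESeq2, and 0 to 1 with a library left out. In siNeg versus Mock, and downwards in both manipulations, the count was 0 with every alternative and 0 to 0 with a library left out. Of the members, 0 passed in siNeg versus Mock throughout. Members negative in both comparisons numbered 3 (without upCIN85 replicate 2) to 6 with a library left out and 6 or 7 otherwise.

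Same-numbered upCIN85 and Mock libraries had deviations correlated at 0.320, 0.218 and 0.0929, and differently numbered ones at -0.285 to 0.0299. A pairing by number is therefore possible there too. Only the replicate block in both experiments used it. At 5 to 42 counts for CDH3 and 1 to 18 for DSC3 in the siRNA groups, depth limits both.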
